A study of Mus musculus with 12 samples.

Results

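The tetraspanins are a family of small membrane proteins. Their RNA was followed here, by bulk RNA sequencing of cultures, across 3 kinds of myeloid cell grown out of mouse marrow. Members were chosen by name alone, as every gene whose symbol is Tspan plus a number, or is Cd9, Cd37, Cd53, Cd63, Cd81, Cd82 or Cd151. This gave 27 genes of the 46072 in the authors' deposited table. Of these, 23 had a mean of at least 10 normalised counts in at least 1 cell type, and the other 4 are given together below.

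The cells came from C57BL/6J mice of 6 to 8 weeks. Osteoclasts, which break down bone and have several nuclei, were grown in M-CSF (30 ng/ml) with RANKL (50 ng/ml), macrophages in M-CSF without RANKL (30 ng/ml), and dendritic cells, called immature in the labels, in GM-CSF (20 ng/ml), each for 8 to 10 days. Osteoclasts and macrophages, but not dendritic cells, first went through 5 days of expansion with M-CSF at 100 ng/ml, and osteoclast cultures were briefly treated with Accutase to take off cells with a single nucleus. Each cell type has 4 libraries, 12 in all, and the labels state that 1 mouse gave all 3 cell types of an experiment, with 4 separate marrow extractions. No sorting step is given in the labels' protocols.

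Tetraspanins cross the membrane 4 times and gather integrins, immunoglobulin-like proteins, proteases and each other into patches of the cell surface and of late endosomes. Several are known as markers of extracellular vesicles (CD63, CD81, CD9), and CD9 and CD81 are known to take part in cell fusion, including the fusion of macrophages and osteoclast precursors. A subgroup called TspanC8 carries the protease ADAM10 out of the endoplasmic reticulum and to its substrates, among them Notch receptors. CD37, CD53 and TSPAN32 (also known as TSSC6) are known mainly from blood cells.

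The 250 bases before a RefSeq start site (build GRCm38.p6) are printed for 4 members, since Cd53, Tspan32 and Tspan33 are known mainly from blood cells and Tspan7 had the largest deposited fold change in favour of osteoclasts. The Cd53 window is chr3:106790150-106790399 on the minus strand and the Tspan32 window chr7:143004796-143005045 on the plus strand. Tspan33 is at chr6:29693964-29694213 and Tspan7 at chrX:10484866-10485115, both on the plus strand. Each window lies before the bounds that GENCODE M21 gives its gene. Capitals mark matches, on either strand, to the core of PU.1 sites (GAGGAA; PU.1 is a factor central to myeloid cells) or of NFAT sites (GGAAA; NFATc1 drives osteoclast genes), which share letters and can overlap.
Cd53: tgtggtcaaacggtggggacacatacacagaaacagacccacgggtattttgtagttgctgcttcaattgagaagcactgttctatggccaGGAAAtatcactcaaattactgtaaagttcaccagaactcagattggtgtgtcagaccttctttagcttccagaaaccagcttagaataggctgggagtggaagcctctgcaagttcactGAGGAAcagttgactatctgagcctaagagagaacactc
Tspan32: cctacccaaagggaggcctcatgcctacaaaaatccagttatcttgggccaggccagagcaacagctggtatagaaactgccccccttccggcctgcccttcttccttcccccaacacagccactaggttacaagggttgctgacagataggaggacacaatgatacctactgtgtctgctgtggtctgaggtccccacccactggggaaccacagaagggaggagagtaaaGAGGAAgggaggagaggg
Tspan33: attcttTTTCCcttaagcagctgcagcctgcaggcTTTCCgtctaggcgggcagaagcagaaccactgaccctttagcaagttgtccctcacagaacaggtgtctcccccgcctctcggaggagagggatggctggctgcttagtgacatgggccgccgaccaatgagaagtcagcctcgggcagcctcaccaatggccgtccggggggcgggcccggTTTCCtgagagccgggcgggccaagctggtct
Tspan7: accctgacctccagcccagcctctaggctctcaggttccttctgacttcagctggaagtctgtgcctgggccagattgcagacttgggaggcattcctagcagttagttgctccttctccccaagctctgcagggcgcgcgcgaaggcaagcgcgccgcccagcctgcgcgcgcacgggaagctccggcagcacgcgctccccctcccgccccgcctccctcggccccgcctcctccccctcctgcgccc

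These 250 base windows held GAGGAA in 23.25% of the 32851 RefSeq mouse promoters and in 10 of the 36 that match 26 of the 27 members; Tspan18 had no entry. Within the nearest 40 bases, GAGGAA was in 4.24% of all promoters and in 7 of the 36, which belong to 6 genes: Cd37, Cd53, Cd82, Tspan9, Tspan14 (with 2) and Tspan32. The match began 39 bases before the Cd53 start and 18 bases before that of Tspan32. The Cd37 match began 23 bases before its start, in a window inside the gene's GENCODE bounds that is not printed. The Cd82 and Tspan9 windows with a near match, and 1 of the 2 of Tspan14, also lie inside their gene's bounds. Bases after the start of this Tspan9 window, both Tspan14 windows and the Tspan7 window matched no GENCODE transcript of their gene. The limit of 40 bases was not planned, and the Cd53 match and 1 Tspan14 match, at 39 bases, lie just inside it. GGAAA was in 55.57% of all promoters and in 18 of the 36. The AP-1 letters (TGANTCA) were in 6.749% and in 1, and the E-box (CACGTG, palindromic) in 6.021% and in 2. Neither GAGGAA nor GGAAA occurred in the Tspan7 window. These are matches of letters, and no measurement of binding was made here.

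The identities of the cells were checked against markers. All 7 osteoclast markers, among them Ctsk and Acp5, were higher in osteoclasts than in macrophages, and all 7 dendritic cell markers, among them Ccl17 and Mgl2, were higher in dendritic cells than in both others. Against dendritic cells 5 of the 7 osteoclast markers were higher in osteoclasts. All 6 macrophage markers were lower in osteoclasts than in macrophages, and 5 of 6 were lower in dendritic cells. The other, Fcgr1, had means of 2944 in dendritic cells and 1812 in macrophages, a difference that was not called. Macrophage markers still summed to 44195 normalised counts in dendritic cells, against 167039 in macrophages and 71509 in osteoclasts. Markers of other cell types were also seen in dendritic cultures. The authors' deposited table sums to 19242 normalised counts over osteoclast markers there, 15041 over 8 neutrophil markers, 8228 over 4 eosinophil markers and 782 over 8 mast cell and basophil markers. The matching sums in macrophages were 851, 99.8, 179 and 8.27 per the authors' deposited table, and the last 3 were 92.6, 397 and 12.7 in osteoclasts. Of the osteoclast markers, Dcstamp and Ocstamp had means of 7666 and 2583 in dendritic cells, above 4231 and 1589 in osteoclasts. Neither difference was called. Acp5, Mmp9 and Ctsk had 4934, 2579 and 1472 in dendritic cells, and Calcr and Oscar 1.02 and 7.15, all below osteoclasts. In bulk RNA, fewer cells of a type and less RNA per cell cannot be told apart. The means over all genes sum to 2.42e+07 normalised counts (osteoclasts), 2.50e+07 (macrophages) and 2.77e+07 (dendritic cells) per the authors' deposited table, and the size factors of the 12 libraries ran from 0.975 to 1.04. Sums over the marker lists differed between libraries of 1 cell type and are given beside the genes concerned. In macrophages neutrophil markers (8 of 8 recovered) also summed to 154 and 148 in libraries b and d against 35.5 and 61.4 in a and c.

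Values per library are given where whole reads could be recovered, which needs a mean of at most 1000 normalised counts. Libraries are called a to d within a cell type, in the order of what 1 read is worth there. The letters carry no replicate number, so library a of osteoclasts and library a of macrophages need not come from the same mouse. For higher members the authors' mean over 4 libraries is given, with no spread. A gene is called changed where the adjusted p per the authors' deposited table is under 0.05, and the standard error (SE) beside a log2 fold change is the one that p-value implies.

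The family as a whole took under 1% of the normalised counts in each cell type. Summed over the 27 genes, the authors' deposited table gives 61780 normalised counts in osteoclasts (0.255% of all), 61990 in macrophages (0.248%) and 85592 for dendritic cells (0.309%). Without Cd53 the shares were 0.222%, 0.191% and 0.209%, so that dendritic cells no longer stood highest. Reads were seen for 26 members in osteoclasts and for 25 in each of the other two. A mean of at least 1000 was reached by 12 members in osteoclasts and in dendritic cells and by 11 in macrophages.

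**Figure D1:**
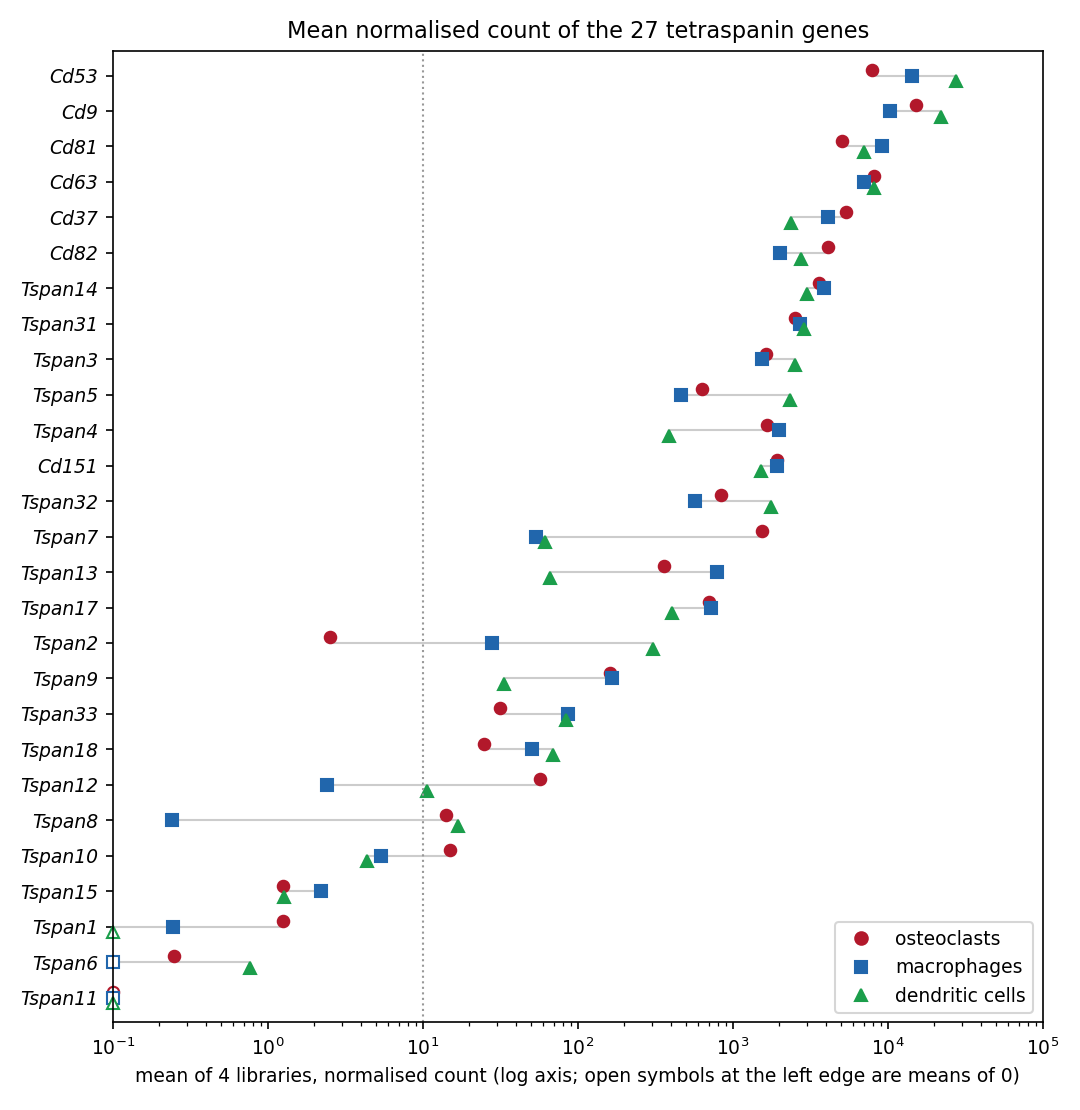
Mean normalised count of each of the 27 tetraspanin genes (log axis) in osteoclasts (circles), macrophages (squares) and dendritic cells (triangles), from the authors' deposited table. The dotted line is at 10, and open symbols at the left edge are means of 0. Cd9 lies at the top in osteoclasts and Cd53 in the other two, and among members with a mean of at least 10 in 1 cell type Tspan2, Tspan8, Tspan7 and Tspan12 span the widest gaps.

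Levels of different genes were compared per kilobase (kb) of exon. The length is that of all annotated exons of a gene together, which can exceed that of the RNA made. It was 1742 bases for Cd53, 2044 for Cd9 and 3682 for Cd63. Before this division the osteoclast mean of Cd63 (8133) was above that of Cd53 (7942), so ranks and shares depend on the annotation. Cd53 and Cd9 led the family in each cell type, in a different order. In osteoclasts Cd9 was first, with 7504 normalised counts per kb against 4559 for Cd53. In macrophages Cd53 was first, with 8212 per kb against 5065 for Cd9, and in dendritic cells Cd53 reached 15812 per kb against 10869 for Cd9. Cd53 alone was then 41.9% of the family's summed level per kb for dendritic cells, 31.7% for macrophages and 18.7% for osteoclasts. At that level it ranked 60 among 45224 genes of dendritic cells, and Cd9 ranked 105 among those of osteoclasts. Cd81 and Cd63 held the next places in all 3 cell types, and Tspan14, Tspan31, Cd37, Cd82 and Tspan4 filled places 5 to 8. The spread between libraries of these abundant genes is not known, so neighbours in this order cannot be said to differ.

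**Figure D2:**
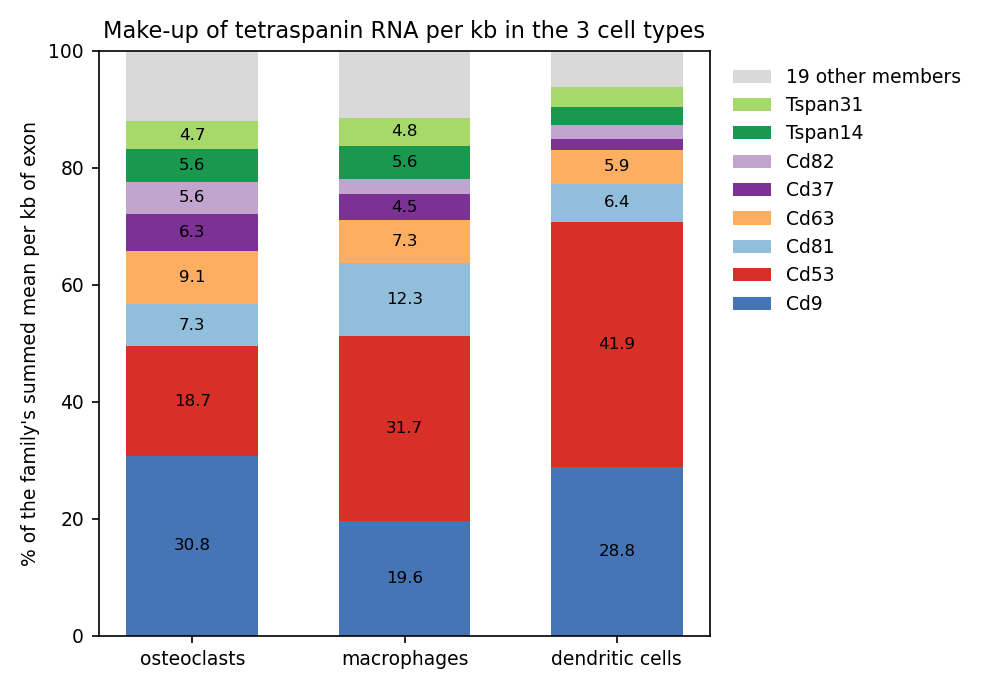
Share of each of the 8 leading members and of the 19 others in the family's summed mean per kb of exon (percent), for the 3 cell types. The Cd53 part grows from 18.7% in osteoclasts to 41.9% in dendritic cells, while the Cd9 part is 30.8% in osteoclasts and 28.8% in dendritic cells.

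Osteoclast and macrophage cultures share M-CSF and differ in RANKL and in the Accutase step, which cannot be told apart here. Of 24 members tested, 8 were higher in osteoclasts (33.3%) and 6 lower (25.0%) per the authors' deposited table. Over all 17822 genes tested, 14.5% were higher and 14.7% lower, 29.3% in either direction against 58.3% of the members. The 8 were Tspan7, Tspan12, Tspan8, Cd82, Cd9, Tspan32, Tspan5 and Cd37, and the 6 were Cd53, Cd81, Tspan13, Tspan33, Tspan18 and Tspan2. Beyond a 2-fold change there were 4 higher and 3 lower. The median log2 fold change of the members was -0.01 and that of all genes -0.03, and the median size of the change was 0.59 for the members and 0.39 for all genes. The shares were not matched for level.

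Osteoclasts and dendritic cells differed in more members. Of 25 tested, 10 were higher (40%) and 10 lower (40%) in osteoclasts per the authors' deposited table, 80.0% in all. Among 21217 genes tested, 16.8% were higher and 20.1% lower, 36.9% in either direction. With the totals of both cell types made equal, the split became 11 higher and 7 lower. The median size of the log2 fold change was 1.17 for the members and 0.54 for all genes tested, and the median change itself was -0.01 against -0.05. Dendritic cells against macrophages gave 7 higher (28.0%) and 7 lower (28.0%) of 25 tested per the authors' deposited table. Of 20730 genes tested there, 20.3% were higher and 16.4% lower, 36.7% in all against 56.0% of the members. The 3 comparisons share libraries, so their counts are not independent of each other. Of the 27 genes, 7 were called in all 3 comparisons, 12 in 2, 3 in 1 and 5 in none. The same was not counted over all genes, here or for the patterns given below. Whether these counts are unusual is therefore not known.

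Reads were recovered in both cell types of a pair for 9 to 11 members with a mean of at least 10 in either. In osteoclasts against macrophages the libraries of 7 of 11 did not overlap, against 32.7% of all genes recovered. For osteoclasts against dendritic cells this held for 7 of 9, against 46.2%, and for dendritic cells against macrophages for 5 of 9, against 39.9%. The abundant members, led by Cd53 and Cd9, are not among them.

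**Figure D3:**
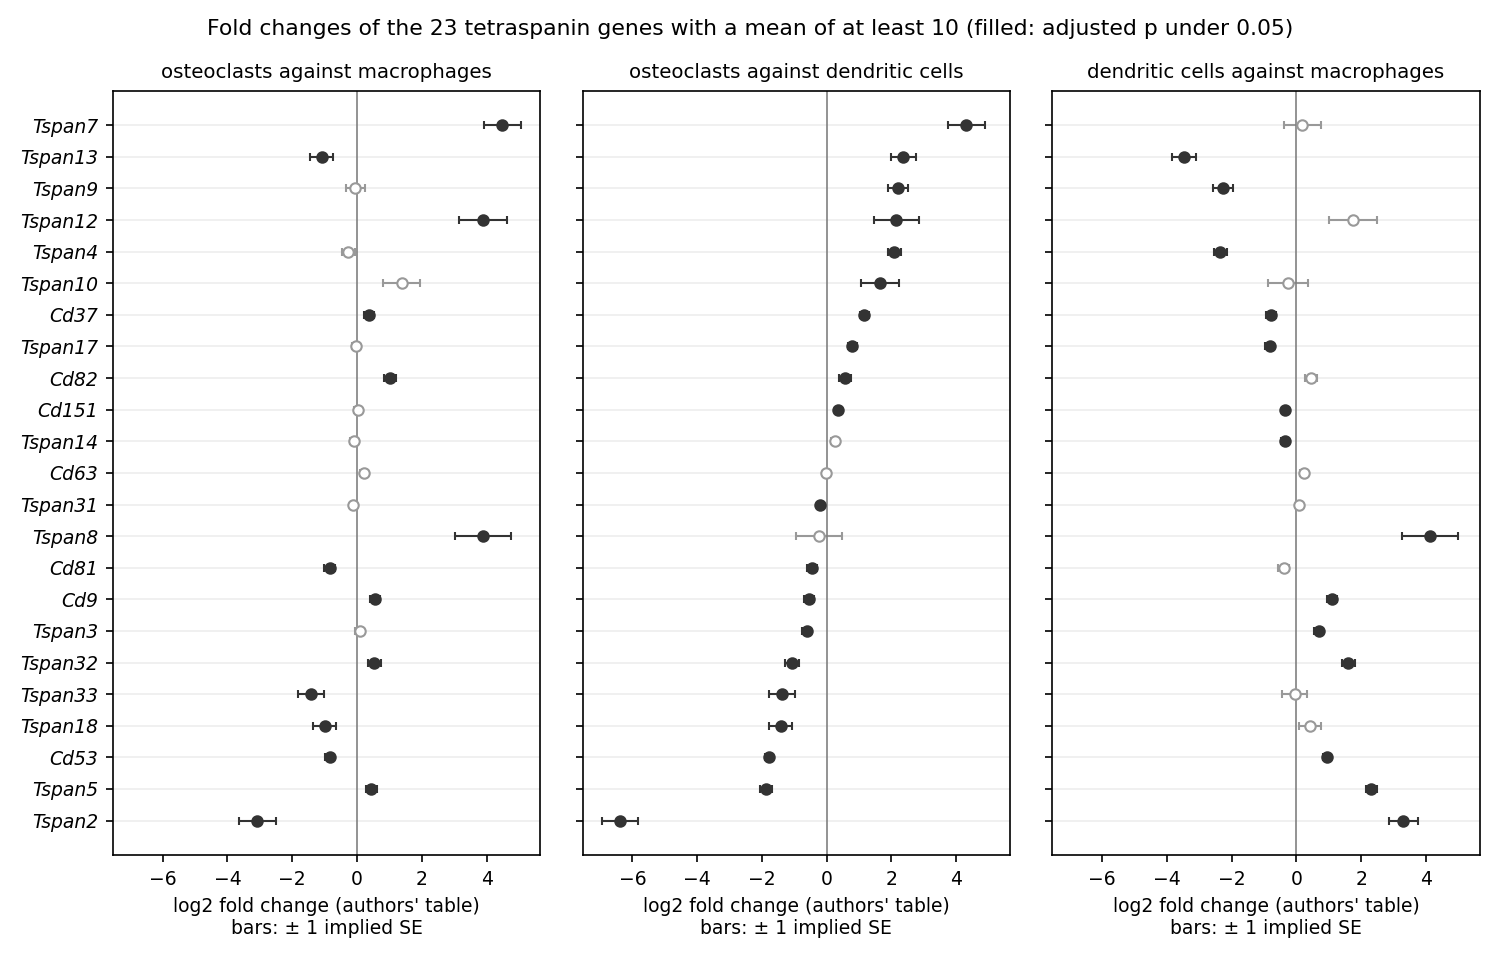
Log2 fold change of the 23 members with a mean of at least 10, from the authors' deposited table, in the 3 comparisons; bars are 1 implied SE to each side and filled points have an adjusted p under 0.05. Genes are ordered by osteoclasts against dendritic cells, from Tspan7 (4.31) at the top to Tspan2 (-6.38) at the bottom.

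Higher in osteoclasts than in both other cell types were 4 members: Tspan7, Tspan12, Cd82 and Cd37. Tspan7, a member on the X chromosome (chrX:10485158-10596605, plus strand) that in osteoclasts is known for shaping the actin ring used to seal off bone, had the widest difference. Its mean per the authors' deposited table was 1543 in osteoclasts, too high for reads per library to be recovered. In macrophages its 4 libraries had 35.5, 19.5, 134 and 24.6 normalised reads, and in dendritic cells 52.9, 49.9, 48.0 and 94.4. Macrophage library c and dendritic library d stood above the other 3 of their kind, and all 8 lay far below the osteoclast mean. Per the authors' deposited table the change on the log2 scale was 4.49 ± 0.57 (SE) over macrophages (adjusted p = 1.74e-13) and 4.31 ± 0.57 over dendritic cells (adjusted p = 5.05e-13). Between dendritic cells and macrophages it was 0.18 ± 0.57, not called (adjusted p = 0.860). By limma on recovered reads that difference was not called either (adjusted p = 0.428) but was called without macrophage library c (adjusted p = 0.0219). Osteoclast markers summed to 1085 normalised reads in macrophage library c and to 730 to 807 in the other 3, over 7 of 7 markers recovered. Their part in the Tspan7 value was not tested.

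Tspan12, a member known for its part in Frizzled signalling, was low in all 3 cell types and highest in osteoclasts. Its libraries had 55.6, 93.4, 65.1 and 13.1 normalised reads in osteoclasts, 2.88, 0, 5.85 and 0.983 in macrophages, and 0, 16.3, 17.4 and 9.23 in dendritic cells. All osteoclast libraries lay above all macrophage libraries, while osteoclast library d fell among the dendritic ones. The authors' deposited table gives a log2 fold change of 3.90 ± 0.74 over macrophages (adjusted p = 1.97e-06) and 2.15 ± 0.70 over dendritic cells (adjusted p = 0.00722). Dendritic cells against macrophages, 1.75 ± 0.75 per the authors' deposited table, missed the threshold (adjusted p = 0.0540). By limma it was not called either (adjusted p = 0.241), except without dendritic library a, which had 0 reads (adjusted p = 0.0149). The call over dendritic cells held by limma on all libraries (adjusted p = 0.0294) and was lost without osteoclast library a, b or c, with an adjusted p of up to 0.0816. It was also lost without dendritic libraries b and d (adjusted p = 0.0552), where the limma difference moved from 2.65 to 3.46 on the log2 scale. Its exons overlap 98 bases of the antisense gene Gm30270, and no source used here says whether the counting used strand.

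Cd82, a partner of integrins once described as a suppressor of metastasis, had means of 4095 (osteoclasts), 2010 (macrophages) and 2758 (dendritic cells) per the authors' deposited table. It rose 2.02-fold over macrophages, a log2 fold change of 1.02 ± 0.20 per the authors' deposited table (adjusted p = 2.86e-06), and by 0.57 ± 0.20 over dendritic cells (adjusted p = 0.0125). Dendritic cells against macrophages, 0.45 ± 0.20 per the authors' deposited table, missed the threshold (adjusted p = 0.0556) but passed it with a minimum of 1 CPM (adjusted p = 0.0410). Cd37, known from B cells and from antigen presentation, had means of 5400, 4144 and 2393 in the same order per the authors' deposited table. The log2 fold change of Cd37 per the authors' deposited table was 1.17 ± 0.15 over dendritic cells (adjusted p = 1.34e-13) and 0.38 ± 0.15 over macrophages (adjusted p = 0.0412). The second call was lost without the authors' filter on low counts or with upper quartiles made equal, where the adjusted p reached 0.0635. Cd37 shares 13 exon bases with Tead2 on the other strand.

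**Figure D4:**
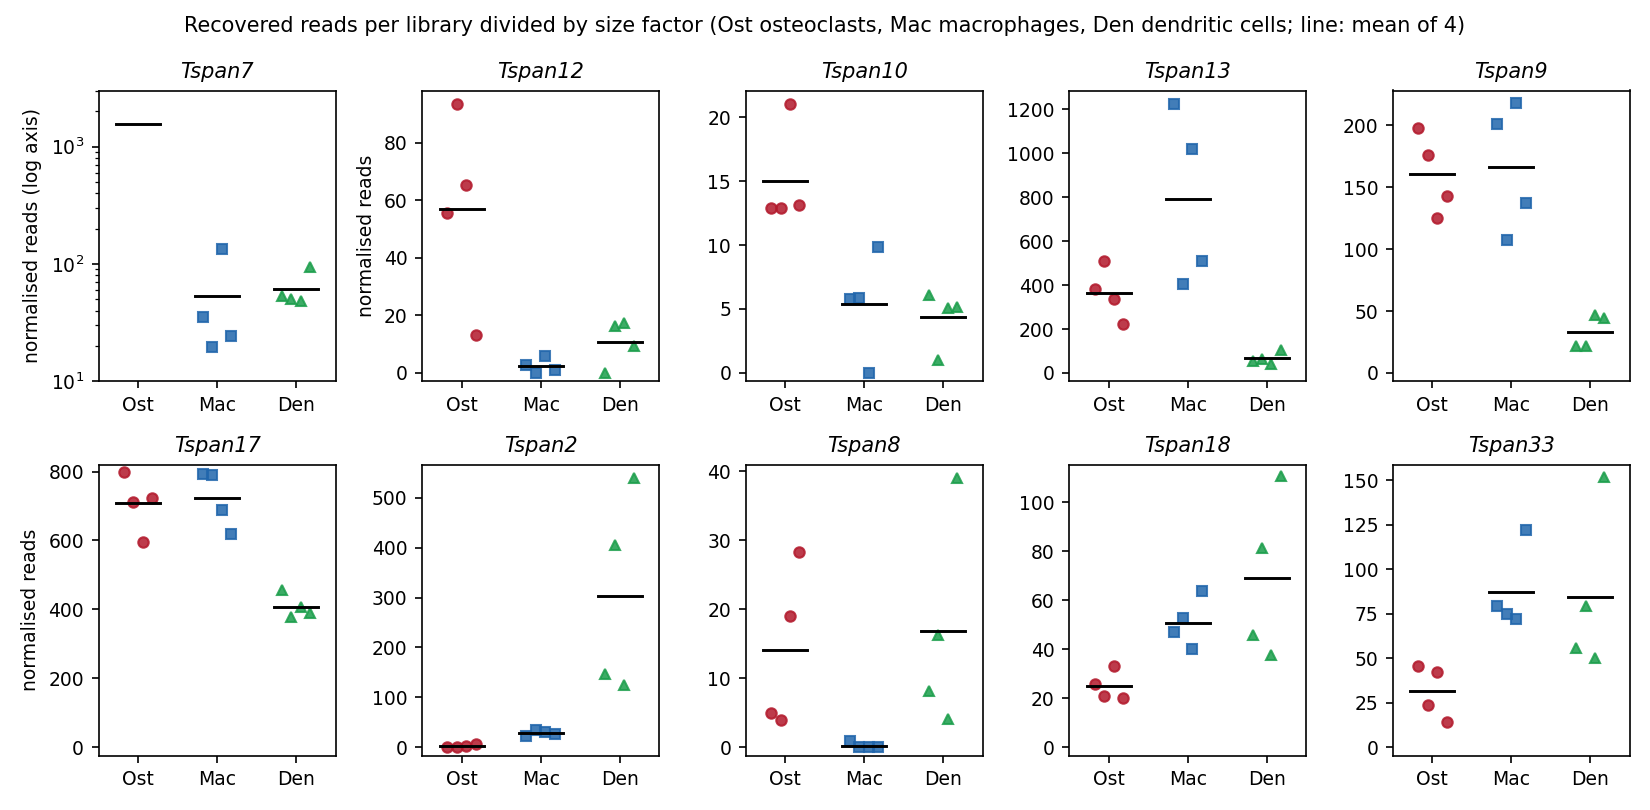
Normalised reads in each recovered library (points) and the authors' mean (line) for 10 members in osteoclasts (Ost), macrophages (Mac) and dendritic cells (Den); the Tspan7 axis is logarithmic, and its osteoclasts have a mean only. Tspan2 runs from 0.993 to 6.05 in osteoclasts and from 125 to 539 in dendritic cells, and Tspan8 has a single read in the 4 macrophage libraries.

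Lower in osteoclasts than in both others were 5 members: Cd53, Cd81, Tspan2, Tspan18 and Tspan33. Cd53, a surface protein of white blood cells at large (chr3:106759921-106790149, minus strand), had means of 7942 (osteoclasts), 14306 (macrophages) and 27545 (dendritic cells) per the authors' deposited table. It was at its lowest in osteoclasts and at its highest in dendritic cells. The authors' deposited table gives a log2 fold change of -0.85 ± 0.13 against macrophages (adjusted p = 1.65e-09) and -1.79 ± 0.13 against dendritic cells (adjusted p = 1.09e-41). Dendritic cells exceeded macrophages by 0.94 ± 0.13 per the authors' deposited table (adjusted p = 3.66e-12). Cd81, a vesicle marker, was highest in macrophages, with means of 5101, 9190 and 6999 in the same order per the authors' deposited table. Osteoclasts stood at -0.84 ± 0.17 against macrophages (adjusted p = 5.97e-06) and at -0.45 ± 0.17 against dendritic cells (adjusted p = 0.0206) per the authors' deposited table. The call against dendritic cells was lost with totals made equal (adjusted p = 0.220). Dendritic cells against macrophages, -0.39 ± 0.17 per the authors' deposited table, was not called (adjusted p = 0.0524), but it was called under 3 of the alternative settings. Cd81 shares 104 exon bases with the noncoding R74862 on the other strand.

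Tspan2 (chr3:102734529-102801513, plus strand), known from oligodendrocytes, was nearly absent from osteoclasts. Its libraries there had 0.993, 0.994, 2.00 and 6.05 normalised reads, 10 reads in all. Macrophages had 22.0, 34.1, 30.2 and 25.6, and dendritic cells 147, 406, 125 and 539. The 3 cell types did not overlap. Tspan2 shares 88 exon bases with the antisense gene Tspan2os. Per the authors' deposited table the change on the log2 scale was -3.08 ± 0.57 for osteoclasts against macrophages (adjusted p = 8.94e-07), -6.38 ± 0.56 against dendritic cells (adjusted p = 5.89e-29) and 3.30 ± 0.45 for dendritic cells over macrophages (adjusted p = 2.92e-12). Osteoclast library d held 6 of the 10 reads, and without it the osteoclast mean was 1.33 and the ratio of means against macrophages moved from -3.48 to -4.40 on the log2 scale. Dendritic libraries b and d were the high ones, and the same 2 were the highest for Tspan18, Tspan33 and Tspan8. Some marker lists were also highest in these libraries. Platelet and megakaryocyte markers (6 of 7 recovered, without Pf4, and Gp9 at 0) summed to 278, 848, 416 and 702 in dendritic libraries a to d, mast cell and basophil markers (8 of 8, Mcpt4 at 0) to 620, 760, 603 and 1144, and stromal markers (6 of 6) to 20.3, 175, 44.9 and 93.3. Neutrophil markers (4 of 8 recovered) went the other way in library b, with 942, 597, 1075 and 930. The whole platelet list, Pf4 included, summed to 628 in osteoclasts, 3381 in macrophages and 3391 for dendritic cells per the authors' deposited table. Most of each sum was Pf4, with means of 566, 3326 and 2830 in that order, while Ppbp had 3.76, 8.50 and 409. In osteoclasts and macrophages the mast cell list ran from 8.06 to 18.0 and from 5.84 to 9.83, and the stromal list from 2.98 to 16.1 and from 9.74 to 37.0. Their part in the values of these 4 genes was not tested. By limma without dendritic libraries b and d, Tspan2 was still called against both, with an adjusted p of 0.000333 for osteoclasts against dendritic cells and 0.00149 for dendritic cells against macrophages.

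Tspan18 and Tspan33 were low throughout. Tspan18 had 25.8, 20.9, 33.0 and 20.2 normalised reads in osteoclasts, 47.0, 52.6, 39.95 and 63.9 in macrophages, and 45.8, 81.4, 37.8 and 111 in dendritic cells. Tspan33, a TspanC8 member known from erythroid and B cells, had 45.7, 23.8, 42.1 and 14.1 in osteoclasts, 79.6, 75.0, 72.1 and 122 in macrophages, and 56.0, 79.4, 50.0 and 152 in dendritic cells. For both genes each osteoclast library lay below every library of the other two, which overlapped each other. For Tspan18 the authors' deposited table gives -0.996 ± 0.350 against macrophages (adjusted p = 0.0187) and -1.42 ± 0.35 against dendritic cells (adjusted p = 0.000204). For Tspan33 these were -1.42 ± 0.40 (adjusted p = 0.00235) and -1.37 ± 0.40 (adjusted p = 0.00238) per the authors' deposited table. Dendritic cells against macrophages was called for neither. By limma without dendritic libraries b and d, neither was called against dendritic cells (adjusted p = 0.120 for Tspan18 and 0.207 for Tspan33). The limma call of Tspan33 against dendritic cells (adjusted p = 0.0202) was also lost without osteoclast library b, osteoclast library d or dendritic library d, with an adjusted p of up to 0.0631. B cell markers summed to 68.1 (osteoclasts), 940 (macrophages) and 336 (dendritic cells) per the authors' deposited table, most of it Ighm, with 2 of the 6 at 0 in osteoclasts and 1 in each of the other cell types. Over the 6 recovered in dendritic cells they summed to 300, 321, 190 and 534 in libraries a to d, highest in d as for Tspan33. Their part in the Tspan33 value was not tested.

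Higher in dendritic cells than in both others were 6 members: Cd53 and Tspan2, given above, with Cd9, Tspan3, Tspan5 and Tspan32. Cd9, which is known to take part in cell fusion and in vesicles, had means of 15339 (osteoclasts), 10353 (macrophages) and 22216 (dendritic cells) per the authors' deposited table. Osteoclasts were above macrophages by a log2 fold change of 0.56 ± 0.16 (adjusted p = 0.00196) and dendritic cells by 1.10 ± 0.16 (adjusted p = 2.62e-11) per the authors' deposited table. Osteoclasts stood -0.53 ± 0.16 against dendritic cells per the authors' deposited table (adjusted p = 0.00264), a call lost with totals made equal (adjusted p = 0.0709). Cd9 shares 218 exon bases with the noncoding Gm26728 on the other strand.

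Tspan5, a TspanC8 member that carries ADAM10, was high in dendritic cells, with a mean of 2333 per the authors' deposited table. Its libraries had 692, 715, 610 and 501 normalised reads in osteoclasts and 419, 449, 579 and 404 in macrophages. Those of osteoclasts and macrophages overlapped, and each lay below the dendritic mean. The log2 fold change of dendritic cells was 2.32 ± 0.18 over macrophages (adjusted p = 4.71e-38), and osteoclasts stood at -1.88 ± 0.17 against dendritic cells (adjusted p = 2.33e-25) per the authors' deposited table. Osteoclasts over macrophages, 0.44 ± 0.18, passed the threshold by the authors' deposited table (adjusted p = 0.0448). That call was lost without the filter on low counts or with upper quartiles made equal (adjusted p of up to 0.0652), and by limma (adjusted p = 0.0533), which called it without macrophage library c or without osteoclast library d (adjusted p down to 0.0197).

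Tspan32, known for restraining T cells and platelets, had 728, 735, 753 and 1128 normalised reads in osteoclasts and 524, 695, 459 and 620 in macrophages, and a mean of 1767 in dendritic cells per the authors' deposited table. Osteoclast library d stood above the other 3, and osteoclasts and macrophages did not overlap. Per the authors' deposited table the change on the log2 scale was 1.61 ± 0.20 for dendritic cells over macrophages (adjusted p = 4.32e-14), -1.07 ± 0.20 for osteoclasts against dendritic cells (adjusted p = 9.45e-07) and 0.54 ± 0.20 for osteoclasts over macrophages (adjusted p = 0.0328). By limma the last was called with all libraries (adjusted p = 0.0453), and lost in 7 of 8 fits that each left out 1 library, with an adjusted p of up to 0.101. Osteoclast library d also had the highest sum of platelet markers (1295 against 360 to 447, 7 of 7 recovered). Most of that list was Pf4, with an osteoclast mean of 566 where the list summed to 628. Pf4 had 3326 in macrophages. The sum of the 5 of 7 dendritic cell markers recovered was also highest in osteoclast library d (824 against 378 to 437). The part of these markers in the Tspan32 value was not tested. Tspan32 shares 271 exon bases with the antisense gene Tspan32os. Tspan3, a widely expressed member, had means of 1647, 1554 and 2517 in osteoclasts, macrophages and dendritic cells per the authors' deposited table. Dendritic cells exceeded macrophages by 0.69 ± 0.14 (adjusted p = 5.18e-06), and osteoclasts stood at -0.61 ± 0.14 against dendritic cells (adjusted p = 7.76e-05) per the authors' deposited table.

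Lower in dendritic cells than in both others were 6 members: Tspan4, Tspan9, Tspan13, Tspan17, Cd151 and Cd37, the last given above. Tspan4, known as a building block of migrasomes, the vesicles left behind by moving cells, had means of 1660 in osteoclasts and 1996 in macrophages per the authors' deposited table. Its dendritic libraries had 536, 272, 398 and 339 normalised reads. Osteoclasts exceeded dendritic cells by a log2 fold change of 2.08 ± 0.20 (adjusted p = 2.12e-24), and dendritic cells stood at -2.35 ± 0.20 against macrophages (adjusted p = 7.60e-31) per the authors' deposited table. Osteoclasts against macrophages, -0.26 ± 0.20 per the authors' deposited table, was not called (adjusted p = 0.342). Tspan4 shares 292 exon bases with Chid1 on the other strand.

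Tspan9, known from platelets, had 198, 176, 125 and 143 normalised reads in osteoclasts, 201, 107, 218 and 138 in macrophages, and 21.4, 21.4, 47.0 and 44.1 in dendritic cells. Osteoclasts and macrophages overlapped throughout, and each dendritic library lay below both. The log2 fold change was 2.21 ± 0.31 for osteoclasts over dendritic cells (adjusted p = 1.28e-11) and -2.26 ± 0.31 for dendritic cells against macrophages (adjusted p = 3.86e-12) per the authors' deposited table. Tspan17, a TspanC8 member, had 799, 711, 597 and 723 normalised reads in osteoclasts, 793, 790, 689 and 619 in macrophages, and 455, 378, 406 and 389 in dendritic cells, again with only dendritic cells apart. The authors' deposited table gives 0.80 ± 0.13 for osteoclasts over dendritic cells (adjusted p = 1.39e-08) and -0.83 ± 0.13 for dendritic cells against macrophages (adjusted p = 3.30e-09).

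Tspan13 was the one member higher in macrophages than in both others. Its libraries had 383, 510, 335 and 222 normalised reads in osteoclasts, 1227, 405, 1022 and 508 in macrophages, and 54.9, 64.1, 40.8 and 106 in dendritic cells. Macrophage libraries a and c stood above b and d, and both b and d lay within the osteoclast range. Dendritic cell markers (5 of 7 recovered) summed to 918, 405, 1288 and 337 in macrophage libraries a to d, likewise higher in a and c, and their part in the Tspan13 value was not tested. The dendritic libraries were all below the rest. Per the authors' deposited table the change on the log2 scale was -1.09 ± 0.37 for osteoclasts against macrophages (adjusted p = 0.0133), 2.37 ± 0.38 for osteoclasts over dendritic cells (adjusted p = 2.64e-09) and -3.46 ± 0.37 for dendritic cells against macrophages (adjusted p = 4.81e-19). By limma the first was not called (adjusted p = 0.0607), except without macrophage library b (adjusted p = 0.0256). Cd151, an integrin partner in adhesion, had means of 1944 (osteoclasts), 1921 (macrophages) and 1522 (dendritic cells) per the authors' deposited table. The authors' deposited table gives 0.35 ± 0.10 for osteoclasts over dendritic cells (adjusted p = 0.00304), -0.34 ± 0.10 for dendritic cells against macrophages (adjusted p = 0.00508) and 0.02 ± 0.10, not called, for osteoclasts against macrophages (adjusted p = 0.935). Cd151 shares 193 exon bases with the noncoding Gm10575 on the other strand.

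Macrophages were lower than both others in Tspan8, Tspan5, Tspan32 and Cd9. Tspan8, known from epithelia and carcinomas, was seen with 1 read in the 4 macrophage libraries. It had 4.97, 3.97, 19.02 and 28.2 normalised reads in osteoclasts and 8.14, 16.3, 4.08 and 39.0 in dendritic cells, which overlapped each other. The ratio of means to macrophages was 58.6 for osteoclasts (56 reads against 1) with an exact 95% interval of 9.91 to 2312, and 70.4 for dendritic cells (66 reads against 1) with 12.0 to 2777, intervals that cover counting error only. Without library d of each, the means of 14.04 and 16.87 became 9.32 and 9.503. By limma without dendritic libraries b and d, the difference of dendritic cells over macrophages moved from 3.50 to 2.53 on the log2 scale and was still called (adjusted p = 0.00649). The log2 fold changes per the authors' deposited table, which lie closer to 0 than these ratios, were 3.89 ± 0.86 for osteoclasts over macrophages (adjusted p = 6.97e-05) and 4.13 ± 0.86 for dendritic cells over macrophages (adjusted p = 1.06e-05). Osteoclasts against dendritic cells was -0.24 ± 0.71 per the authors' deposited table and not called (adjusted p = 0.844). With a minimum of 1 CPM Tspan8 was not tested, as its highest level was 0.61 CPM, in dendritic cells.

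Cd63, the classical marker of late endosomes and exosomes, was called in no comparison, with means of 8133, 6988 and 8165 in osteoclasts, macrophages and dendritic cells per the authors' deposited table. The 95% interval of its log2 fold change in osteoclasts, from the authors' deposited table, ran from -0.02 to 0.45 against macrophages (adjusted p = 0.171) and from -0.24 to 0.23 against dendritic cells (adjusted p = 0.995). For dendritic cells against macrophages it ran from -0.01 to 0.46 per the authors' deposited table (adjusted p = 0.140). Tspan14, a TspanC8 member, had means of 3619, 3869 and 3033 per the authors' deposited table, and only dendritic cells against macrophages was called (-0.35 ± 0.13, adjusted p = 0.0205). Its value for osteoclasts against dendritic cells, 0.25 ± 0.13 per the authors' deposited table (adjusted p = 0.113), was called with totals made equal (adjusted p = 0.00185). Tspan31 had means of 2513, 2712 and 2900 per the authors' deposited table. Osteoclasts stood at -0.21 ± 0.07 against dendritic cells per the authors' deposited table (adjusted p = 0.0180), and this call was lost under both other scalings, with an adjusted p of up to 0.915. Tspan31 shares 641 exon bases with Cdk4 on the other strand, so their reads cannot be told apart if strand was not used.

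Tspan10, a TspanC8 member known from the eye and from osteoclasts, had 12.9, 12.9, 21.03 and 13.1 normalised reads in osteoclasts, 5.75, 5.84, 0 and 9.83 in macrophages, and 6.10, 1.02, 5.10 and 5.13 in dendritic cells. All osteoclast libraries lay above all others, and library c was the highest. Calcr, the only osteoclast marker recovered in osteoclasts, had 578, 583, 1292 and 568 there, also highest in c, and its part in the Tspan10 value was not tested. The log2 fold change was 1.65 ± 0.58 over dendritic cells (adjusted p = 0.0150) and 1.38 ± 0.57 over macrophages, which missed the threshold (adjusted p = 0.0511), per the authors' deposited table. With totals made equal the second was called (adjusted p = 0.0421), and with a minimum of 1 CPM Tspan10 was not tested. Tspan1, Tspan6, Tspan11 and Tspan15 had means under 10 in every cell type. They had 6, 4, 0 and 19 reads in the 12 libraries together, and none was called.

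The TspanC8 subgroup (Tspan5, Tspan10, Tspan14, Tspan15, Tspan17 and Tspan33) had calls in both directions. Of its 6 genes, 1 was higher and 1 lower in osteoclasts against macrophages, 2 and 2 against dendritic cells, and 1 and 2 in dendritic cells against macrophages per the authors' deposited table. Over all genes tested 29.3%, 36.9% and 36.7% were called in these comparisons, so the 2 of 6 against macrophages is near that share. Among 11 genes for ADAM10 substrates and Notch receptors, 1 was higher and 8 lower in osteoclasts against dendritic cells per the authors' deposited table. Against macrophages 1 of 10 tested was higher and 2 lower, and for dendritic cells over macrophages 6 of 11 were higher and 1 lower per the authors' deposited table. Of all genes tested, 16.8% were higher and 20.1% lower against dendritic cells, 29.3% changed against macrophages, which 3 of 10 is close to, and 20.3% were higher and 16.4% lower in dendritic cells over macrophages. Notch1 had means of 364, 1171 and 2830 in osteoclasts, macrophages and dendritic cells, and Cdh1, which encodes E-cadherin, of 226, 106 and 4736 per the authors' deposited table. The median log2 fold change of this list was -2.90 for osteoclasts against dendritic cells, where the median of all genes was -0.05. Of the 11 genes, 2 had a mean of 0 in osteoclasts. App and Cxcl16, the highest of the list in osteoclasts, had means of 16352 and 5029 there against 25126 and 4582 in dendritic cells.

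The position of the genes was compared with their patterns. In GENCODE M21, 4 pairs of members are neighbours less than 100 kb apart, and 3 of these have both genes above a mean of 10. Cd151 and Tspan4, 3.77 kb apart on chromosome 7, were both lower in dendritic cells than in the other cell types. Tspan32 and Cd81, 33.1 kb apart on chromosome 7, differed: Tspan32 had its highest mean in dendritic cells and Cd81 in macrophages. Tspan18 and Cd82, 84.6 kb apart on chromosome 2, ran in opposite directions, Cd82 being higher and Tspan18 lower in osteoclasts than in both others. The fourth pair is Tspan11, with 0 reads, and Tspan9, 7.42 kb apart on chromosome 6.

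Among 18 partner proteins of tetraspanins, 4 of 16 tested were higher and 3 lower in osteoclasts than in macrophages per the authors' deposited table. Against dendritic cells 7 of 17 were higher and 5 lower, and for dendritic cells over macrophages 5 were higher and 5 lower of 17 per the authors' deposited table. The shares called over all genes tested were 14.5% higher and 14.7% lower, 16.8% and 20.1%, and 20.3% and 16.4% in the same order. Mmp14, a membrane protease, had means of 2429, 232 and 7444 in osteoclasts, macrophages and dendritic cells per the authors' deposited table, and rose in osteoclasts over macrophages by a log2 fold change of 3.30 ± 0.34 (adjusted p = 1.10e-20). Hbegf, a growth factor bound by CD9, had means of 143, 20.5 and 1285 per the authors' deposited table. Itga6, a laminin-binding integrin chain that pairs with CD151, had means of 3938, 9925 and 654 per the authors' deposited table. Cd36, a scavenger receptor, was lower in osteoclasts than in macrophages by a log2 fold change of -1.48 ± 0.37 per the authors' deposited table (adjusted p = 0.000569).

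Of 12 genes of vesicle formation and exosome release, 0 were higher and 3 of 11 tested lower in osteoclasts against macrophages per the authors' deposited table. Against dendritic cells 2 were higher and 2 lower, and 2 were higher and 6 lower in dendritic cells against macrophages per the authors' deposited table. Over all genes 29.3%, 36.9% and 36.7% were called, so the first count is near that share and the 4 of 12 against dendritic cells below it. Rab27a, which docks secretory vesicles, had means of 66.4, 201 and 506 in osteoclasts, macrophages and dendritic cells per the authors' deposited table. Sdcbp, which encodes the exosome adaptor syntenin, stood at -0.58 ± 0.11 in osteoclasts against macrophages per the authors' deposited table (adjusted p = 1.74e-06). The L6 family has the same 4 membrane spans without being tetraspanins. Its Tm4sf19 had means of 879, 25.5 and 199 per the authors' deposited table. Tm4sf1 (20.8, 4.14 and 5.87) and Tm4sf5 (28.7, 16.0 and 12.8) were low, and Tm4sf4 and Tm4sf20 had no mean above 0.51. Of 3 L6 genes tested, 2 were higher in osteoclasts than in macrophages and 3 than in dendritic cells. Over all genes tested, 14.5% and 16.8% were higher in these comparisons. Rom1, 1 of 4 tetraspanins outside the naming rule, was lower in osteoclasts, with means of 26.0, 55.1 and 55.9 per the authors' deposited table.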

How the data were processed

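RNA of the cultures was prepared with a kit that keeps the strand (labels' protocols). It was sequenced in 1 lane with single reads 50 bases long (series' design text). The tools named per the submitters' processing notes are Bowtie2, TopHat2, Cufflinks 2.1.1, bcl2fastq and DESeq2, on GRCm38; no source used here gives their roles, the annotation or the strand setting. Per the file headers, the deposited table lists 2 means per comparison with a log2 fold change and the p-value before and after adjustment, all computed by the authors. The deposited means behave as counts scaled by size factors and averaged over 4 libraries, an inference from the values.

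The planned test on counts per library did not apply to all genes, since the table has no column per library; calls are the authors', at adjusted p under 0.05. The implied SE takes the deposited p-value as a two-sided Wald test, which is an inference, and 95% intervals use 1.96 SE. Whole reads per library were solved from means of at most 1000, for 41078 of 41078 genes in osteoclasts, 41095 of 41140 in macrophages and 41004 of 41007 in dendritic cells; on simulated reads 0 solutions were wrong. As an alternative, limma 3.58.1 was fitted to log2(normalised reads + 1) over genes with a mean of at least 5 in either cell type. Tested on simulated data for osteoclasts against macrophages (9421 genes, 200 changed), it found 52% of 2-fold and 93% of 4-fold changes and called 0.0651% of unchanged genes. The simulated reads had the same spread setting for every gene, so these rates need not hold for each member. In macrophages the standard deviation between libraries was 50.2% of the mean for Tspan13, above that setting, and 11.7% for Tspan17, below it. Symbols matched 45138 of 46072 identifiers. Coordinates, exon lengths and overlaps are from GENCODE M21, whose gene models may differ from those the authors counted. Promoters are from RefSeq (GRCm38.p6).

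Every member with a mean of at least 10 in 1 cell type is described. From each gene list at most 4 called genes are named, those with the smallest p. Genes named to show what a sum, count or median rests on are apart from this. The members, lists, motifs and markers were chosen with earlier results of these data known. Other scalings, filters, thresholds and left-out libraries were tried, as the closing section gives.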

Additional observations from a re-analysis of the deposited data

Results flagged for a closer look

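Among 29 groups of 4 recovered libraries with a mean of at least 10 normalised reads, 5 had 1 library far from the other 3 by Dixon's criterion at 95%, which chance alone meets in about 1 in 20 groups. Tspan7 had 134.5 normalised reads in macrophage library c, where the other 3 had 19.5 to 35.5, and 94.4 in dendritic library d, where the others had 48.0 to 52.9. Tspan32 had 1128 in osteoclast library d against 728 to 753, Tspan10 had 21.03 in osteoclast library c against 12.9 to 13.1 (Calcr, an osteoclast marker, had 1292 there against 568 to 583), and Tspan33 had 122 in macrophage library d against 72.1 to 79.6. The causes were not tested.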

How the results depend on the processing

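The settings tried on the authors' deposited values were no filter on low counts, a minimum of 1 CPM, totals made equal and upper quartiles made equal. With totals made equal 60 log2 fold changes of the members kept direction and call, 3 turned, 3 lost the call and 3 gained it; with upper quartiles made equal 63 kept both, 2 turned, 3 lost the call and 1 gained it. Members higher in osteoclasts than in macrophages fell from 8 to 5 at an adjusted p under 0.01. They fell to 6 without the filter on low counts or with upper quartiles made equal, where Cd37 and Tspan5 were lost. With a minimum of 1 CPM there were 7, since Tspan8 was not tested. At least a 2-fold change left 4 higher and 3 lower in osteoclasts against macrophages, 6 lower against dendritic cells, and 3 lower in dendritic cells against macrophages. Making totals equal moved all genes by 0.19 on the log2 scale in osteoclasts against dendritic cells and by -0.15 in dendritic cells against macrophages. Directions turned for values near 0 that no setting called: Cd151 in osteoclasts against macrophages (-0.012 with upper quartiles made equal), Cd63 in osteoclasts against dendritic cells (0.19 with totals and 0.041 with upper quartiles made equal), Tspan17 in osteoclasts against macrophages (0.015 with totals made equal) and Tspan31 in dendritic cells against macrophages (-0.052 with totals made equal). Among members with recovered reads the authors called 4 higher in osteoclasts than in macrophages and limma called 3, or 2 to 3 when each library was left out in turn. With a ratio of means in place of the deposited fold change, Tspan8 moved to 5.87 and 6.14 on the log2 scale over macrophages in osteoclasts and dendritic cells. Without dendritic libraries b and d, a setting chosen after seeing the data, 1 of 3 members remained called lower in osteoclasts than in dendritic cells, Tspan2, and the higher call of Tspan12 was lost (adjusted p = 0.0552); the fit then has 2 dendritic libraries, and beyond that the causes were not tested. No paired analysis was possible because the table carries no replicate number for a library, so libraries of the same mouse could not be matched. For members above 1000 in a cell type the spread between libraries is unknown, and low members such as Tspan8 rest on few reads.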
